A study of Homo sapiens with 11 samples.

Results

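The D-type cyclin genes CCND1, CCND2 and CCND3 were examined in chromatin immunoprecipitation sequencing (ChIP-seq) data from SK-N-MC, a human cell line of Ewing sarcoma, a tumour driven by the EWSR1::FLI1 fusion. Each locus was taken as the annotated gene body plus 100 kb on each side on GRCh38, and every peak that reached into it was counted. The 3 genes are 3 of 20033 protein-coding genes in the annotation, and their loci held 83 of the 134925 peaks in the 9 deposited lists. CCND1 had 37 peaks, CCND2 had 9 and CCND3 had 37.

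All 11 samples came from SK-N-MC cells for which the labels name no treatment and give the genotype as wildtype. Of these, 9 were pull-downs, with 1 library each for the histone marks H3K27ac, H3K4me1, H3K4me3 and H3K27me3, for FLI1, and for the proteins CHD4, HDAC2, MTA2 and RBBP4. The other 2 were inputs and were not analysed here. CHD4 was pulled down through a Flag tag, with the means of tagging not given in the sources used here. No tag is named in the genotype label of that library. With 1 library per target no value below has a replicate error, no test was run, and the read depth behind the lists is unknown. Fold enrichment is the height of a peak summit over its local background, as the authors' peak caller gave it. It was compared only within a list, as a percentile at which 100 is the highest peak of that list.

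D-type cyclins activate the kinases CDK4 and CDK6, which phosphorylate the retinoblastoma protein RB1 and so let cells pass from G1 into S phase. The 3 genes encode closely related proteins, and tissues differ in which of them they use. CCND1 has been described as highly expressed in Ewing sarcoma and as a target of EWSR1::FLI1. FLI1 antibodies see the DNA-binding part of the fusion, an ETS factor that binds GGAA sequences. CHD4, the remodelling ATPase, HDAC2, a histone deacetylase, MTA2, a scaffold, and RBBP4, a histone-binding protein that other complexes also contain, are subunits of the nucleosome remodelling and deacetylase complex (NuRD). H3K4me3 marks promoters, H3K27ac active promoters and enhancers, H3K4me1 enhancers and H3K27me3 Polycomb-repressed chromatin.

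CCND1 lies at chr11:69641156-69654474, a gene body of 13.3 kb, with LOC124902704, LTO1 and FGF19 as the other protein-coding genes in its locus. CCND2 lies at chr12:4273762-4305353, a gene body of 31.6 kb, with TIGAR and FGF23 beside it and the antisense RNA gene CCND2-AS1 across its start. CCND3 lies at chr6:41934933-42050035, a gene body of 115.1 kb, with USP49, MED20, BYSL, TAF8 and C6orf132 beside it. CCND1 and CCND2 are read toward higher coordinates and CCND3 toward lower ones. The other annotated genes in the loci were the noncoding genes LOC105369612 near CCND2 and LOC105375059 within CCND3, and the pseudogenes DNAJB6P5, RPS15P7 and RNU6-761P. The annotation used here gives gene ends and no exons, so a peak is placed inside or outside a gene body only.

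RefSeq promoter sequences on GRCh38 (patch 14) were matched for 1 of the 3 genes, CCND3, and not for CCND1 and CCND2. These sequences gave 3 annotated starts of CCND3, the most upstream at 42048688. The others lay 106.9 kb and 109.5 kb further into the gene, at 41941808 and 41939205. The annotated gene body reaches further upstream, to 42050035, an end that is not among these starts. The 250 bases before each start are shown because the peaks over them differed, with the letters GGAA, or TTCC where it lies on the other strand, in capitals. All are on the minus strand.
CCND3 most upstream start, chr6:42048689-42048938: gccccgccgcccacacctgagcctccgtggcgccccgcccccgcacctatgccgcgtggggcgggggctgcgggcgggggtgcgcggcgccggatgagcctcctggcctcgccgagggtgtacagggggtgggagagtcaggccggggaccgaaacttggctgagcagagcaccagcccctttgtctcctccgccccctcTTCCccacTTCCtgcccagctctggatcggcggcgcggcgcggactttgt
CCND3 middle start, chr6:41941809-41942058: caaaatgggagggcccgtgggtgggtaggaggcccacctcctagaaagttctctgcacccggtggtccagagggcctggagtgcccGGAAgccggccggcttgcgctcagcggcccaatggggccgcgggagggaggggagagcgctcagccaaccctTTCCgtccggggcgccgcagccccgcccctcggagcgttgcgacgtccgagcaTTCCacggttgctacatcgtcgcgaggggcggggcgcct
CCND3 most downstream start, chr6:41939206-41939455: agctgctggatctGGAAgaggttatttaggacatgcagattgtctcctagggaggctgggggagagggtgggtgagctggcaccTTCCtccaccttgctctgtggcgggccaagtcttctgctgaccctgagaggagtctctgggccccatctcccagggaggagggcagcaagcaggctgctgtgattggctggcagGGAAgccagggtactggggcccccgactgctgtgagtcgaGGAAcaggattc

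Peaks lay over 2 of these 3 stretches. No peak of any list touched the 250 bases before the most upstream start. Before the middle start H3K4me3 and MTA2 covered all 250 bases, RBBP4 200 and HDAC2 192. Before the most downstream start H3K27ac covered all 250 bases and H3K4me1 126. In sequence, G and C made up 74.4% of the most upstream stretch, 71.2% of the middle and 61.2% of the most downstream one, against a median of 62.0% (quartiles 52.0% and 70.4%) over 22198 promoters of protein-coding genes. The dinucleotide CG, counted on 1 strand since it reads the same on both, occurred 26, 26 and 3 times, beside a median of 16. GGAA, searched on both strands, occurred 2, 3 and 4 times, beside a median of 3, and 92.5% of all promoters held it. None of the 3 stretches held GGAAGGAA on either strand, a tandem copy that also contains GGAA and that 3.17% of promoters held. GGGCGG, the GC box of SP factors, was found 5, 2 and 0 times on either strand, and in 53.7% of promoters.

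The loci differed in how many peaks they carried, CCND2 standing below the median gene and CCND1 and CCND3 above it. The 37 peaks of CCND1 and the 37 of CCND3 each exceeded the number at 82.1% of protein-coding genes, whereas 29.2% of genes had fewer than the 9 of CCND2. The median gene had 17 peaks (quartiles 7 and 30). The windows differ in length, and per 100 kb the values were 17.3 peaks for CCND1, 3.89 for CCND2 and 11.7 for CCND3, beside a median of 6.56. With only peaks of a −log10 p of at least 15 the counts were 22 for CCND1, 5 for CCND2 and 29 for CCND3. By nearest protein-coding gene, 24 of the 37 CCND1 peaks belonged to CCND1, 7 of the 9 CCND2 peaks to CCND2 and 21 of the 37 CCND3 peaks to CCND3.

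**Figure D1:**
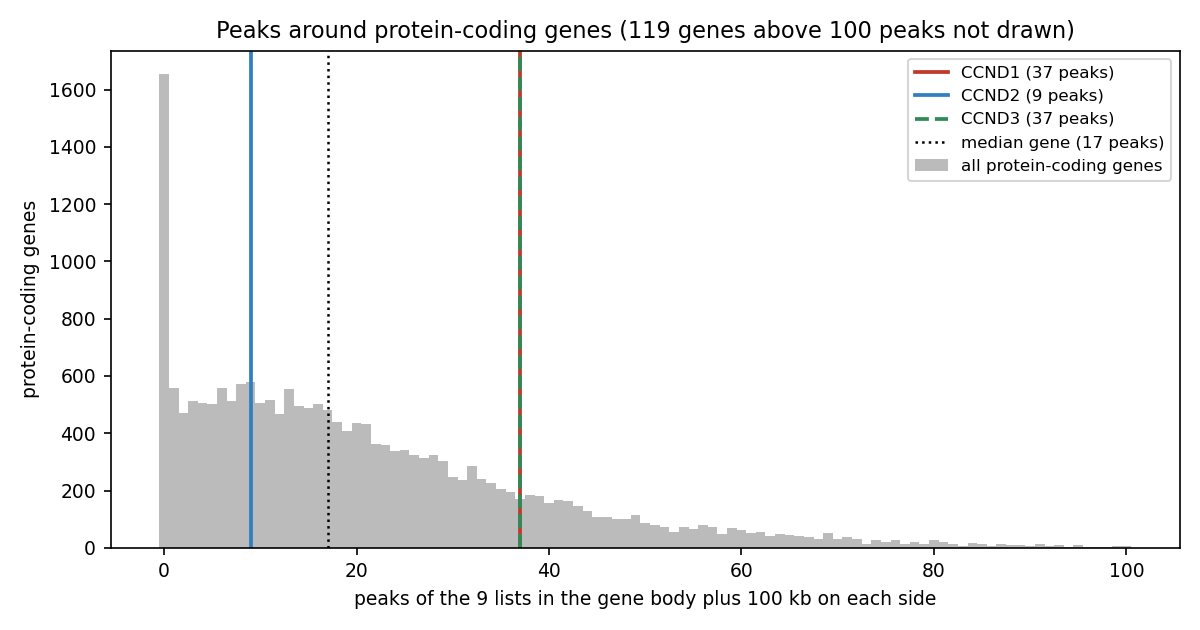
Number of protein-coding genes (y axis) by the number of peaks of the 9 lists in the gene body plus 100 kb on each side (x axis), with lines for CCND1, CCND2, CCND3 and the median gene. CCND1 and CCND3 coincide at 37 peaks, CCND2 is at 9 and the median gene at 17, and 119 genes above 100 peaks are not drawn.

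**Figure D2:**
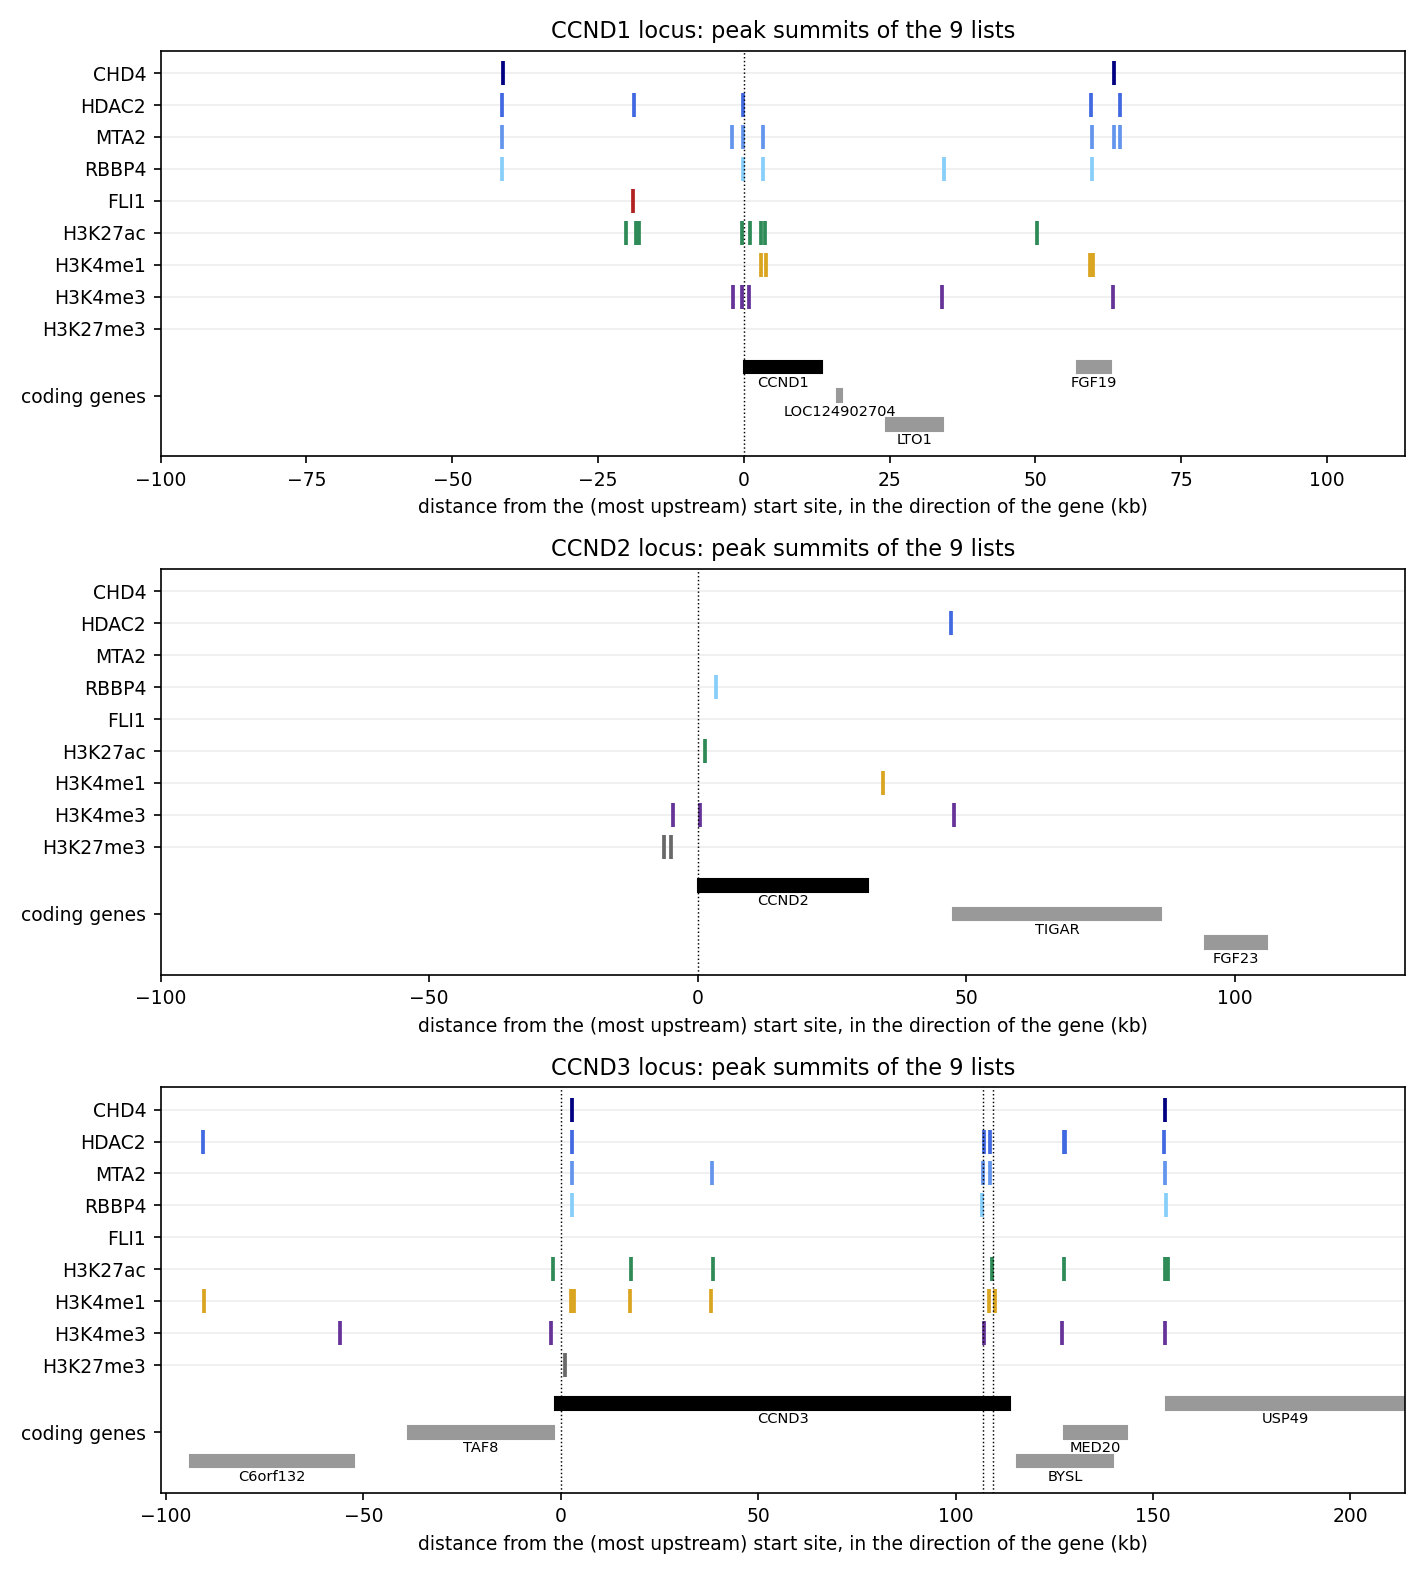
Summits of all peaks of the 9 lists at the CCND1, CCND2 and CCND3 loci by distance from the (most upstream) start in kb, in the direction of the gene, with protein-coding genes as bars and annotated cyclin starts as dotted lines. FLI1 has 1 summit, upstream of CCND1, H3K27me3 has 2 upstream of CCND2 and 1 in CCND3, and CCND2 has no CHD4 or MTA2 summit.

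At the starts the genes differed in the company of H3K4me3. The CCND1 start carried H3K4me3, H3K27ac, HDAC2, MTA2 and RBBP4, the middle CCND3 start H3K4me3 with the same 3 subunits, and the CCND2 start H3K4me3 as its only peak within 1 kb. An H3K4me3 peak lies within 1 kb of a start at 61.1% of the 15842 protein-coding genes with an annotated start, H3K27ac at 42.2%, HDAC2 at 41.2%, RBBP4 at 23.9% and MTA2 at 22.1%. The starts of CCND1 and CCND2 are here the lower ends of the annotated genes, since the promoter table matched CCND3 alone, so their comparison with genes that have an annotated start is approximate. CHD4 was within 1 kb of none of the 5 cyclin starts, and of a start at 11.0% of genes. FLI1 was likewise absent from all 5 starts and lies at 0.884% of genes.

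At CCND1 the H3K4me3 peak over the start spanned 69641096 to 69644308 with a fold enrichment of 22.8 (percentile 82.7). A weaker H3K4me3 peak just upstream, 69639710 to 69641003, reached 6.38 (percentile 3.96), and another at 69639193 to 69639627 reached 10.6. H3K27ac lay on both sides of the start. The peak inside the gene, 69641183 to 69643477, had a fold enrichment of 13.5, which is percentile 89.2 of its list and the highest acetylation peak of the 3 loci. The peak upstream of the start, 69640547 to 69640932, had 5.52 (percentile 19.3). HDAC2 crossed the start, from 69640507 to 69641790, at 6.50 (percentile 80.3), its highest value in the 3 loci. MTA2 at 69640700 to 69641053 had 6.74 and RBBP4 at 69640918 to 69641084 had 4.09. These MTA2 and RBBP4 peaks overlapped the weaker, upstream peaks of H3K4me3 and H3K27ac, RBBP4 sharing 15 bp with the H3K27ac peak, and neither of the stronger peaks inside the gene. HDAC2 overlapped the upstream and the inner peaks of both marks. The HDAC2 and MTA2 summits were 4 bp apart and the HDAC2 and RBBP4 summits 52 bp. The nearest CHD4 peak was 41.2 kb away.

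Inside CCND1 a second cluster lay about 3 kb from the start. H3K27ac peaks at 69643578 to 69644398 (9.27) and 69644596 to 69644881 (5.54) overlapped the ends of a site of MTA2 (5.20) and RBBP4 (2.87) at 69644335 to 69644638. H3K4me1 peaks at 69643927 to 69644267 (5.58) and 69644692 to 69645186 (7.35) lay on either side of the same site. No peak was called in the rest of the CCND1 gene body. A further MTA2 peak without another subunit stood upstream at 69638990 to 69639444 (5.999), over the H3K4me3 peak there.

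CCND2 had H3K4me3 beginning at its start and few other peaks. The H3K4me3 peak ran from 4273770 to 4275925, beginning 8 bp inside the annotated gene, with a fold enrichment of 18.5 (percentile 62.1). It also covered 1 of the 2 annotated starts of CCND2-AS1, at 4275477, so which of the overlapping genes the mark belongs to cannot be told apart. A narrow H3K27ac peak lay inside it at 4274866 to 4275234, with 6.29 (percentile 32.3), 1.10 kb from the start. The sole subunit peak in the gene was RBBP4 at 4276991 to 4277184, with 2.79, among the lowest of its list at percentile 3.67. No HDAC2 peak was nearer than 47.0 kb to the start, and no MTA2 or CHD4 peak was nearer than 167.9 kb.

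H3K27me3 stood upstream of CCND2. Peaks at 4267136 to 4268077 (fold enrichment 6.91, percentile 70.7) and 4268333 to 4269177 (6.76, percentile 64.5) lay inside CCND2-AS1, the nearer of them 4.59 kb from the CCND2 start. The nearer peak shared 274 bp with an H3K4me3 peak at 4268904 to 4269722 (12.502, percentile 31.5), so both marks were called over that stretch. Of all H3K27me3 peaks, 9.21% overlap an H3K4me3 peak, a share looked up after this overlap was seen. In these bulk cells, both marks on the same nucleosomes and each mark in a different part of the cells cannot be told apart.

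At CCND3 the peaks separated the annotated starts. The middle start lay inside an H3K4me3 peak at 41939748 to 41942394 with a fold enrichment of 21.9 (percentile 78.9). HDAC2 spanned 41940759 to 41942000 at 5.58 (percentile 63.0) and MTA2 41941587 to 41942066 at 8.44 (percentile 77.4), both across the start, and RBBP4 was 13 bp from it at 41941821 to 41942020 with 3.99 (percentile 40.6). No H3K27ac peak lay within 1 kb of this start. The acetylation peak stood further into the gene, at 41938539 to 41940622, with 7.01 (percentile 43.9), and covered the most downstream start. An H3K4me1 peak at 41938101 to 41939331 with 7.56 (percentile 84.1) covered that start as well, and H3K4me1 is within 1 kb of a start at 5.76% of genes. A second group of HDAC2 (4.54) and MTA2 (4.38) at 41939670 to 41940364 lay between the start pair, under H3K27ac, H3K4me1 and H3K4me3.

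The most upstream of the 3 CCND3 starts, at 42048688, had H3K27me3 within 1 kb and no other peak. This H3K27me3 peak, 42047389 to 42047740, was 0.948 kb from the start and weak, with a fold enrichment of 4.56 (percentile 11.7) in a list that reaches a start at 2.46% of genes. H3K4me3 and H3K27ac peaks with 8.04 and 8.52 lay on the other side, at 42050477 to 42051380 and 42050512 to 42050839, over the lower end of TAF8. They were 0.442 kb and 0.477 kb beyond the annotated upper end of CCND3 at 42050035. With that end taken as the start, as the outer end was for CCND1 and CCND2, H3K4me3 and H3K27ac lie within 1 kb. H3K27me3 is then 2.295 kb away.

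CCND1 and CCND3 thus had HDAC2, MTA2 and RBBP4 without CHD4 near a start, which 5.45% of genes with a start share. Among the 1835 genes with these 3 subunits near a start, 864, or 47.1%, had no CHD4 peak there. The combination was singled out after its values were seen.

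**Figure D3:**
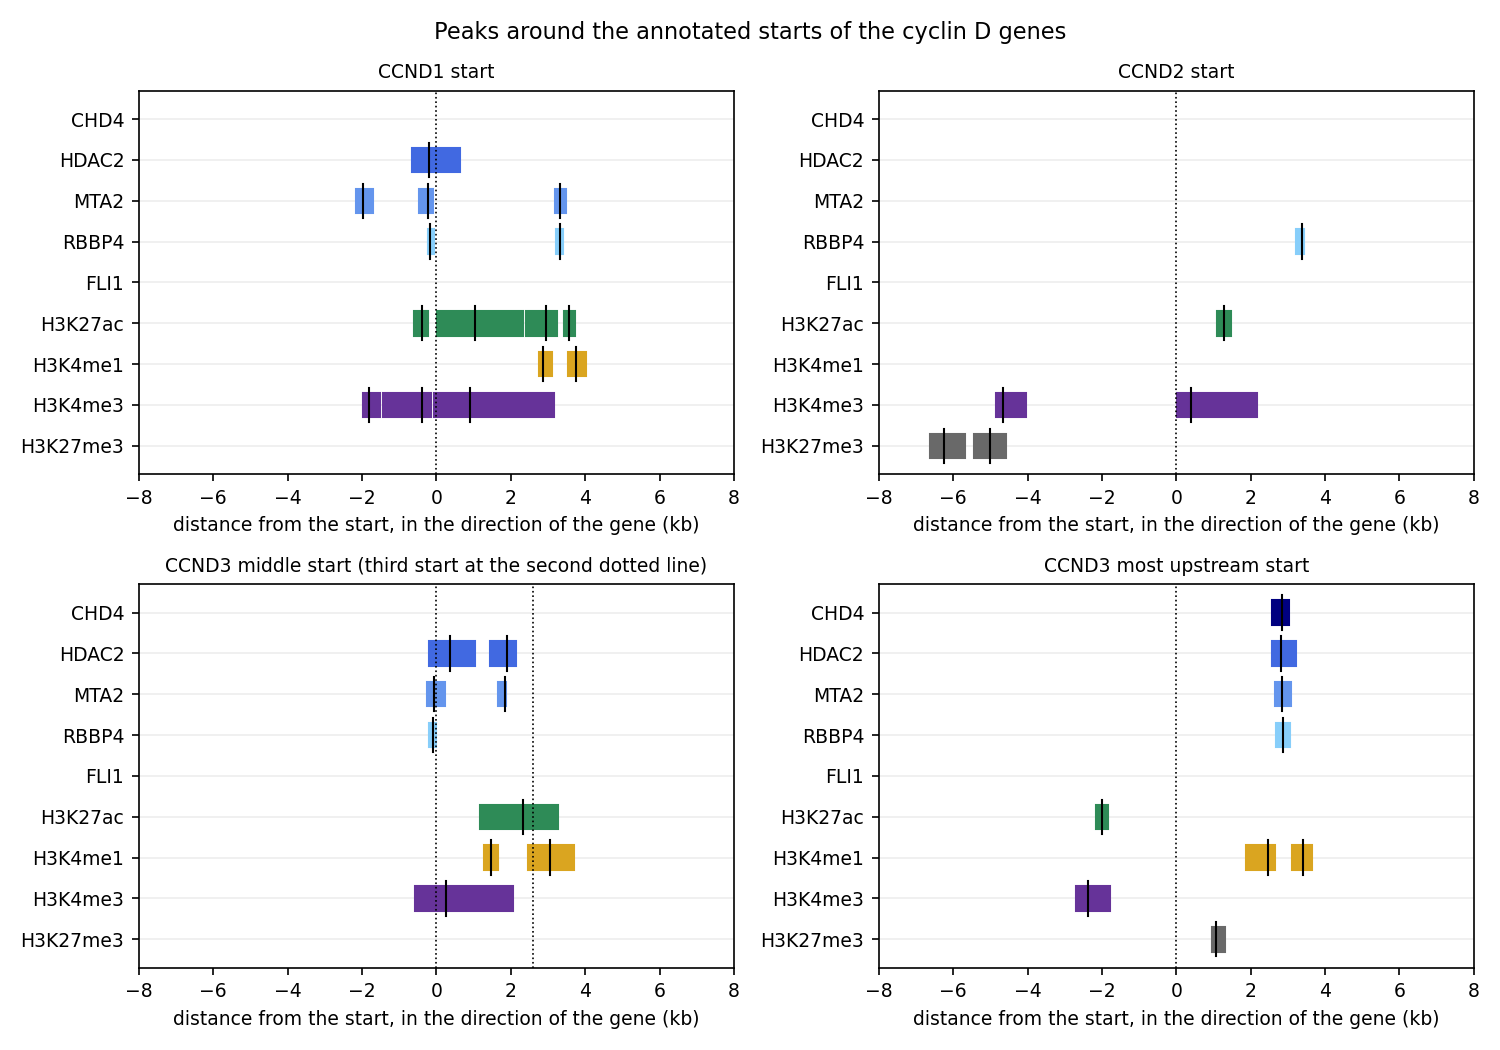
Peaks of the 9 lists as boxes to scale with summits as black lines, within 8 kb of the CCND1 start, the CCND2 start and the middle and most upstream CCND3 starts, by distance from the start in kb in the direction of the gene. HDAC2, MTA2 and RBBP4 lie at the CCND1 and middle CCND3 starts, H3K27me3 lies 4.59 kb upstream of CCND2, and the most upstream CCND3 start lies between peaks.

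FLI1 had 1 peak in the 3 loci, upstream of CCND1. It spanned chr11:69622048-69622285, 18.9 kb from the CCND1 start and outside any annotated gene, with a fold enrichment of 9.05 (percentile 65.6) and a −log10 p of 19.8 (percentile 52.2). At least 1 FLI1 peak is found in the same window for 12.7% of protein-coding genes, and 5.11% of genes have one nearer than CCND1 does. The nearest FLI1 peak was 1938 kb from CCND2 and 1483 kb from CCND3, beside a median of 752 kb over all protein-coding genes. CCND2 and CCND3 thus had no called FLI1 peak in their surroundings, and at an unknown depth weaker binding was not detectable.

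The CCND1 FLI1 peak was accompanied by HDAC2 and by acetylation on both sides. HDAC2 at 69622136 to 69622428 (fold enrichment 5.37, percentile 57.7) shared 150 bp with it, with summits 126 bp apart. By −log10 p this HDAC2 peak was low in its list, with 13.7 at rank 18336 of 20633. It is not among the peaks with a −log10 p of at least 15. CHD4, MTA2 and RBBP4 had no peak there, the nearest being 22.1 kb, 16.7 kb and 18.6 kb away. HDAC2 as the sole subunit was found at 2.31% of the 1561 FLI1 peaks, a combination looked up after its values were seen. H3K27ac peaks at 69620679 to 69621139 (10.03), 69622428 to 69622982 (7.97) and 69623059 to 69623332 (4.75) flanked the FLI1 peak without overlapping it. The nearest began 143 bp from the edge of the FLI1 peak. By −log10 p the H3K27ac peak at 69623059 was also low in its list, with 10.2 at rank 21304 of 21500. The H3K27ac peaks at 69620679 and 69622428 had 30.5 and 28.7. Overlap with H3K27ac is seen at 49.3% of FLI1 peaks, and 16.5%, a share also looked up afterwards, lie outside H3K27ac peaks with an acetylation peak within 2 kb on each side. The nearest H3K4me1 peak was 21.6 kb away, and 81.04% of FLI1 peaks have one nearer (median 0.299 kb).

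**Figure D4:**
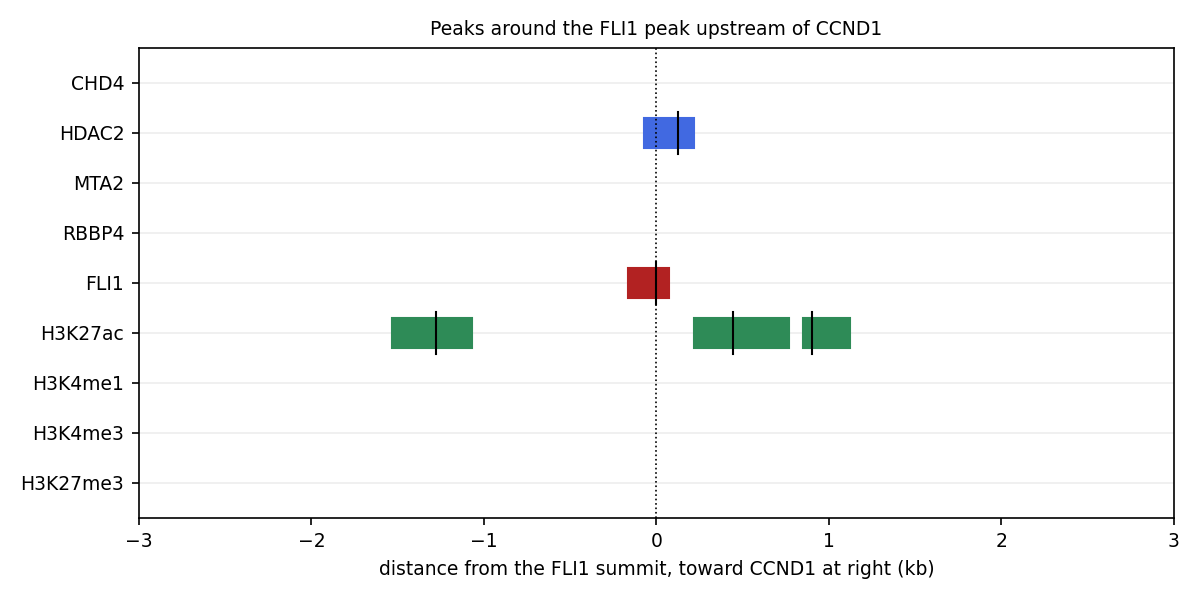
Peaks of the 9 lists within 3 kb of the FLI1 summit upstream of CCND1, as boxes to scale with summits as black lines, by distance from that summit in kb with CCND1 to the right. HDAC2 overlaps FLI1, 3 H3K27ac peaks flank it, and the other lists have no peak.

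Acetylation away from gene ends was modest at all 3 genes. H3K27ac peaks over 1 kb from the ends of protein-coding genes were joined with their neighbours at the stitching distance usual for super-enhancers, giving 6421 domains ranked by fold enrichment times width. The domain at the CCND1 FLI1 peak, 69620679 to 69623332 with 3 peaks, ranked 2562 (top 39.9%), and the domain inside CCND1 ranked 2770. The best CCND3 domain was the peak at the downstream start, 41938539 to 41940622, at rank 1959 (top 30.5%). CCND2 had a single domain, the narrow peak near its start, at rank 5444 (top 84.8%). Starts inside a gene were not left out by this rule, so the CCND2 and best CCND3 domains lie at or near starts.

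NuRD subunit peaks numbered 19 at CCND1, 2 at CCND2 and 17 at CCND3. Peaks that overlapped by at least 1 bp formed 9, 2 and 8 merged sites. All 4 subunits came together at 1 CCND1 site, at none of the CCND2 sites and at 2 CCND3 sites, 3 of 19 in all. Over the whole genome 17.0% of 28995 merged sites hold all 4 subunits, and 37.9% of protein-coding genes have such a site in the gene body plus 100 kb.

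The CCND1 site with all 4 subunits lay 41.2 kb upstream of the start at 69599353 to 69599978, outside any annotated gene. CHD4 had a fold enrichment of 5.46 (percentile 72.3), HDAC2 5.86 (percentile 69.3), RBBP4 4.92 (percentile 68.8) and MTA2 3.95 (percentile 3.81), so MTA2 was low in its list where the other three were above their medians. No histone mark or FLI1 peak overlapped the site, the nearest being H3K27ac at 20.7 kb. Of all sites with 4 subunits, 11.9% lack any such peak, a share looked up after this site was seen. With peaks of a −log10 p of at least 15 the site no longer counted, since MTA2 had 12.9 here.

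Within CCND3 all 4 subunits met at 42045459 to 42046108, 2.58 kb inside the most upstream start. Fold enrichment was 3.90 for CHD4 (percentile 24.3), 5.11 for HDAC2 (percentile 50.9), 4.45 for MTA2 (percentile 9.07) and 4.44 for RBBP4 (percentile 55.5). Ranked by −log10 p the same peaks stood higher in their lists. CHD4 was 4234 of 13288, HDAC2 2239 of 20633, MTA2 5363 of 13462 and RBBP4 2088 of 13725. The 4 summits lay within 57 bp of each other. H3K4me1 peaks at 42045028 to 42045569 (5.66) and 42046043 to 42046824 (5.50) touched both edges, and no H3K27ac peak lay within 4.40 kb. This was the sole site with all 4 subunits that the CCND3 locus kept with peaks of a −log10 p of at least 15.

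The other CCND3 site with all 4 subunits lay at the start of USP49, a gene for a deubiquitinase, at 41895146 to 41896091. There CHD4 had 3.51, HDAC2 4.88, MTA2 6.30 and RBBP4 2.69, under H3K4me3 (18.8) and H3K27ac (6.89). It belongs to the neighbour, and its RBBP4 peak had a −log10 p of 8.39.

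Away from its own annotated starts, CCND3 held enhancer marks inside the gene. An H3K4me1 peak at 42009779 to 42011074 with a fold enrichment of 9.31 ranked 973 of 31247 (percentile 96.9), the highest H3K4me1 peak of the 3 loci. It overlapped H3K27ac at 42009865 to 42010789 (4.16, percentile 3.26) and MTA2 at 42010267 to 42010491 (7.58, percentile 66.3), so the H3K4me1 peak was high in its list and the H3K27ac peak low. The noncoding gene LOC105375059 overlaps this part of CCND3 and has an annotated start there, at 42010713. A second pair, H3K4me1 at 42030530 to 42031600 (5.04) and H3K27ac at 42030603 to 42031262 (5.44), had no subunit peak. CCND2 by comparison had 1 H3K4me1 peak, downstream of the gene at 4308233 to 4308528 (6.48, percentile 63.1), and no other peak with it.

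Most of the remaining peaks lay at neighbouring genes. Beside CCND1, the LTO1 start had H3K4me3 (20.6) and a weak RBBP4 peak (2.75). FGF19, a growth factor gene, held a site of HDAC2 (2.87), MTA2 (7.50) and RBBP4 (3.57) at 69700546 to 69700975, overlapped at its ends by H3K4me1 peaks of 8.50 and 6.08. The first of these, 69699322 to 69700645, was at percentile 93.1. Just outside the upper end of FGF19 were H3K4me3 (10.8) with CHD4 (3.16) and MTA2 (4.63), and then HDAC2 (4.08) with MTA2 (6.21). Between LTO1 and FGF19 lay 1 H3K27ac peak (6.45). Beside CCND2, the TIGAR start had the highest H3K4me3 peak of that locus (21.8, percentile 78.2) and its sole HDAC2 peak (4.56). Beside CCND3, the shared MED20 and BYSL start region had H3K4me3 of 27.8 (percentile 95.1), H3K27ac of 10.6 and HDAC2 peaks of 2.64 and 3.02. C6orf132 had H3K4me3 (5.46) and, near its upper end, adjoining H3K4me1 (4.82) and HDAC2 (4.64) peaks.

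Counted by target with peaks at neighbouring genes included, CCND1 ranked high among genes for MTA2 and RBBP4, and CCND2 for H3K27me3. CCND1 had 7 MTA2 peaks, more than 94.3% of genes, and 5 RBBP4 peaks, more than 87.7%. CCND2 had 2 H3K27me3 peaks, more than 93.0% of genes, and CCND3 had 1, more than 85.5%, while 14.5% of genes have any. The CCND2 peaks lie close together, 1 ending at 4268077 and the next beginning at 4268333. Whether they are a single stretch split by the peak caller was not tested. CCND3 had 7 HDAC2 peaks, more than 83.8% of genes, and 5 MTA2 peaks, more than 86.2%. Of these, 4 HDAC2 peaks and 1 MTA2 peak were nearest to another protein-coding gene. The counts by target are not scaled for window length, which was 315.1 kb for CCND3 and 213.3 kb for CCND1. H3K27ac counts were 8 for CCND1, 1 for CCND2 and 7 for CCND3, and H3K4me3 counts 5, 3 and 5. At least 1 peak in the window is found for 61.4% of genes with CHD4, 81.3% with HDAC2, 70.0% with MTA2, 71.1% with RBBP4, 77.8% with H3K27ac, 65.9% with H3K4me1 and 85.1% with H3K4me3, so the presence of these at CCND1 and CCND3 is common. CCND2 lacked CHD4 and MTA2, as 38.6% and 30.01% of genes do.

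**Figure D5:**
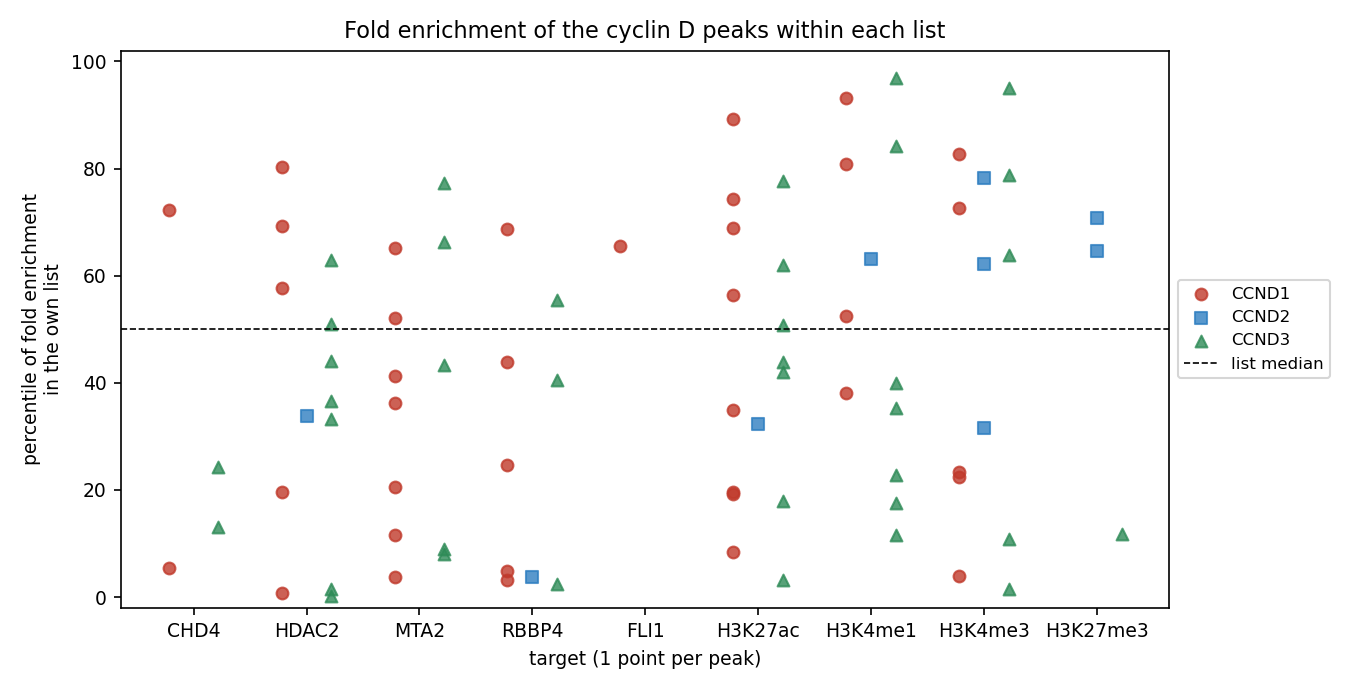
Percentile of the fold enrichment of each peak at the cyclin D loci, neighbouring genes included, within its own list (y axis, 100 is the highest peak). Targets are on the x axis, with 1 point per peak and a dashed line at the list median. CCND1 points reach percentile 93.1 in H3K4me1 (at FGF19). CCND3 points reach 96.9 in H3K4me1 and 95.1 in H3K4me3 (at MED20 and BYSL), and both CCND3 CHD4 points lie under 25. Ranked by −log10 p, which is not drawn, both CCND3 CHD4 peaks stood higher, at 4234 and 8123 of 13288.

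The height of peaks spread widely within each locus. CCND1 HDAC2 peaks ranged from 2.87 to 6.50 in fold enrichment, MTA2 from 3.95 to 7.50, RBBP4 from 2.75 to 4.92 and H3K27ac from 4.75 to 13.5. CCND3 HDAC2 peaks ranged from 2.64 to 5.58, MTA2 from 4.38 to 8.44, RBBP4 from 2.69 to 4.44 and H3K27ac from 4.16 to 10.6. The lists as a whole had medians of 5.08 for HDAC2, 6.64 for MTA2, 4.26 for RBBP4 and 7.45 for H3K27ac. Fold enrichment and −log10 p did not order the peaks alike. The HDAC2 peak with 6.50 at CCND1 had a −log10 p of 30.1, and the HDAC2 peak with 5.11 inside CCND3 had 36.9.

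Genes that act with the D-type cyclins were described over the same window. The list held 19 genes, the kinases CDK4, CDK6 and CDK2, the pocket proteins RB1, RBL1 and RBL2, E2F1, E2F2 and E2F3, the cyclins CCNE1 and CCNE2, the phosphatase CDC25A and the inhibitors CDKN1A, CDKN1B, CDKN1C, CDKN2A, CDKN2B, CDKN2C and CDKN2D. They had a median of 27 peaks, from 9 at RBL2 to 63 at CDK4, beside the all-gene median of 17. All 19 had HDAC2, H3K27ac and H3K4me3 peaks, beside 81.3%, 77.8% and 85.1% of all protein-coding genes. CHD4 peaks were found for 17 (89.5%, beside 61.4% of all genes), MTA2 for 16 (84.2%, beside 70.0%) and RBBP4 for 18 (94.7%, beside 71.1%). H3K4me1 peaks were found for 17 (89.5%, beside 65.9%) and H3K27me3 peaks for 3 (15.8%, beside 14.5%), the last near the share of all genes. A site with all 4 subunits was found for 11 (57.9%, beside 37.9%). The windows of CDKN2A and CDKN2B overlap, and both held 27 peaks and 3 such sites, so these 2 genes are not separate entries. Window length was not taken into account in the counts of the list. CDK4 and CDK6, the partners of the D-type cyclins, had 63 and 59 peaks with 4 and 2 such sites.

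FLI1 peaks lay in the windows of 4 of the 19 (21.1%, beside 12.7% of all genes), CDK4, CDK2, CDKN2A and CDKN2B, of which CDKN2A and CDKN2B share 1 peak. By −log10 p these peaks lay between percentiles 5.45 and 40.8 of the FLI1 list. CDK4 had FLI1 peaks 84.6 kb and 85.8 kb from the gene, with fold enrichments of 4.21 and 3.79, both over all 4 subunits and H3K27ac. CDK2, the partner of cyclin E, had 1 at 68.97 kb (4.39) over HDAC2, MTA2, RBBP4, H3K27ac and H3K4me3. The peak of CDKN2A and CDKN2B, inhibitors of CDK4 and CDK6, had 5.43 and lay over all 4 subunits, 47.7 kb and 82.8 kb from them. The −log10 p of these FLI1 peaks ranged from 8.29 to 15.8, below the 19.8 at CCND1. No gene of the list lacked all 4 subunits.

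The genes whose pattern over the 9 targets was most like that of each cyclin gene were found from the highest percentile of each target in the window. A target without a peak counted as 0, so shared absence adds to likeness. Some of the highest peaks lie at neighbours, such as H3K4me3 at TIGAR for CCND2 and at MED20 and BYSL for CCND3. For CCND1 they were TPH2, LSM10 and OSCP1, with a mean absolute difference of 5.47 to 5.49 percentile points over 9 targets, where LSM10 and OSCP1 are neighbours. For CCND2 they were F11R, ITLN2 and IFRD1 (5.25 to 7.68), and for CCND3 PRRX2, KNL1 and SLC4A3 (5.35 to 5.61). Among the cyclin genes the difference was 21.8 between CCND3 and CCND1, where the median over genes was 26.2 from CCND3 and 31.4 from CCND1. It was 37.5 between CCND3 and CCND2 and 52.99 between CCND2 and CCND1, beside a median of 35.7 from CCND2. Of the other genes, 25.2% were nearer to CCND1 than CCND3 was, and 90.5% were nearer to CCND2 than CCND1 was.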

How the data were processed

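ChIP-seq peak lists of SK-N-MC cells were used, 1 for each of 9 targets, as named in the labels. The submitters' processing notes name the build GRCh38, the aligner BWA 0.7.17, Trimmomatic 0.36 for trimming, bedtools 2.27.1, deepTools 3.2.1, FastQC 0.11.7 and SAMtools 1.9. Peaks were called with MACS2, per the deposited peak names. Its version, control library, pooling and excluded regions: not given in the sources used here. Each deposited peak has a fold enrichment, a ratio at the summit over local background, and a −log10 p computed by the authors' peak caller. The deposited −log10 q was not used. The smallest deposited −log10 p was 5.02 for FLI1, 7.01 for RBBP4 and 9.00 to 9.16 in the other 7 lists. Read counts are not part of the files, the depth is therefore unknown, and an uncalled site is not shown to be unbound.

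Positions were made 1-based. An overlap of 1 bp counted. Genes and promoters came from RefSeq tables of GRCh38, all 3 genes and all 19 pathway genes were matched by symbol, and the direction of CCND1 and CCND2 is textbook knowledge. The members and lists were chosen with earlier results of these data known. Described by rule were every FLI1 peak, every site with all 4 subunits, the highest peak of each target at each locus, pathway genes with a FLI1 peak or no subunit, and the 3 genes of most similar pattern. Local background was solved from the deposited fold enrichment and −log10 p under the usual Poisson definition of MACS2 (pileup and background each raised by 1), a step tested on simulated data. Python 3.11.15, pandas 2.3.3, numpy 2.4.6, SciPy 1.17.1 and matplotlib 3.10.9 were used. Alternatives were a window of 50 kb, a −log10 p of at least 15, the 2000 strongest peaks per list, stricter overlap and other domain rules.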

Additional observations from a re-analysis of the deposited data

How the results depend on the processing

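Of 63 values recomputed under the other settings, 49 stayed within 1.5 times and 14 moved. Most of the 49 were counts of 0, which rules that only drop peaks or overlaps cannot raise. The tally therefore does not measure stability. When peaks under a −log10 p of 15 were dropped, CCND1 had 22 peaks in place of 37, 5 H3K27ac peaks in place of 8 and 0 sites with all 4 subunits in place of 1, CCND2 had 5 peaks in place of 9 and 0 H3K27ac peaks in place of 1, and CCND3 had 1 site with all 4 subunits in place of 2. With the 2000 peaks of highest −log10 p per list, which keeps the FLI1 list whole, the peaks numbered 1 at CCND1, 2 at CCND2 and 4 at CCND3, the H3K27ac peaks 0, 0 and 1, and the sites with all 4 subunits were 0 at CCND1 and 0 at CCND3. Fewer peaks enter under both rules by construction. A window of 50 kb, the stricter overlaps and the other domain rules moved no value by over 1.5 times. The FLI1 peak of CCND1 was present under every alternative run for it. At 18.9 kb from the gene, with a −log10 p of 19.8 and its list kept whole, it could not drop out. No paired analysis was possible because each target has 1 library. Unknown depth limits every count of 0.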

Other observations

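The local background recovered from fold enrichment and −log10 p differed between the loci. For CCND3 the median over its peaks was above the median of the list for each of the 8 targets with a peak, by a factor of 1.23 (H3K4me3) to 1.99 (H3K27me3), with 1.79 for CHD4 and 1.502 for HDAC2. For CCND1 the factor ran from 0.50 (FLI1, 1 peak) to 1.54 (RBBP4), with a median of 0.922 over 8 targets. For CCND2 it ran from 0.470 (H3K4me1, 1 peak) to 1.46 (RBBP4, 1 peak), with a median of 0.836 over 6 targets. The recovery assumes that the deposited values follow the usual definitions. The part of these backgrounds in the peak values was not tested.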
